A study of Arabidopsis thaliana with 40 samples.

Results

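Chromosome 2 of *Arabidopsis thaliana* carries a long copy of mitochondrial DNA near its centromere, and smRNAs matching this insertion were described bin by bin in Col-0 and in mutants of the RNA-dependent RNA polymerase (RDR) pathway. The members are the 540 consecutive genomic bins of 500 nt numbered Chr2_6481 to Chr2_7020, chosen by position alone, out of 239338 bins in the genome. On TAIR10 they cover 3240001 to 3510000 of chromosome 2, which is 270 kb. smRNAs of 15 to 50 nt were sequenced from unopened flower buds of 30-day-old untreated plants, with 2 libraries per group. The groups were Col-0, the wild type, and the single mutants *rdr1-1*, *rdr2-1*, *rdr3-1*, *rdr4-1*, *rdr5-1*, *rdr6-11*, *sgs3-11* and *rdm12-1*, with genotypes from the labels and alleles from the study's methods. Each mutant gene is represented by 1 allele. *rdr3* was compared with its own pair of Col-0 libraries and the other 7 mutants with the same other pair, so their values share the error of that control. The deposited tables come from edgeR. Per bin they give a log2 fold change of mutant over Col-0, the mean abundance over libraries as log2 CPM, and an FDR. CPM is a scaled read count, but not one scaled to the size of the library alone. An approximate CPM per genotype, derived from these columns, summed over all bins to 806449 in the shared Col-0 libraries and 6574038 in *rdr2*. A CPM value is therefore not a share of the reads of a library. The tables have no value per library, so the depth of each library is unknown here, no SD can be given, and whether single libraries of 2 groups overlap cannot be said.

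RDRs copy single-stranded RNA into double-stranded RNA, which Dicer-like enzymes cut into smRNAs. RDR2 makes the heterochromatic siRNAs that guide DNA methylation at transposons, and RDM12, also known as IDN2, acts in the same methylation pathway. RDR6 and its partner SGS3 make trans-acting siRNAs, RDR1 is known for antiviral defence, and the roles of RDR3, RDR4 and RDR5 are less well understood. Mitochondrial transcripts are made inside the organelle, where transfer RNAs (tRNAs), ribosomal RNAs (rRNAs) and messenger RNAs leave short, protected pieces. The mitochondrial annotation lists such pieces as cosRNAs, clustered organellar short RNAs.

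The window was compared with the mitochondrial genome of the RefSeq reference (TAIR10.1, 367808 nt) by words of 24 nt. The mitochondrial copy ran from 3239038, in bin 6479, to 3509765, in bin 7020, a length of 270728 nt. Thus the copy begins shortly before the window, and the last bin is mitochondrial only in part. 99.52% of its bases lay in words also found in the mitochondrial genome, and 73.7% of that genome was found in it. 363 of the 540 bins consisted of mitochondrial words throughout, and 519 held at least 90% of them. The copy differed from the reference at 173 isolated single bases, and 1 stretch of 1105 nt, from 3258529 to 3259633, had no mitochondrial counterpart. The mitochondrial sequence of the reference is not the ChrM sequence of the deposited bins, since the 734 ChrM bins imply a shorter molecule, so ChrM bins were used by their number only. The 2 ends of the copy and the left border of the stretch without a counterpart are shown because they mark where the insertion begins and stops being mitochondrial. They are on the plus strand of chromosome 2 in TAIR10.1, with mitochondrial bases in capitals.

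Left end, chr2:3238989-3239088: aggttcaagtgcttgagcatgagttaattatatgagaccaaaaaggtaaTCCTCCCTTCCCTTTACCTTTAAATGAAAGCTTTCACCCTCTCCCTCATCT
Right end, chr2:3509716-3509815: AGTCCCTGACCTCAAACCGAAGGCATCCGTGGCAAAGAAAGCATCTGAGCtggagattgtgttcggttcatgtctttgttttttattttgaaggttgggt
Left border of the stretch without a counterpart, chr2:3258499-3258648: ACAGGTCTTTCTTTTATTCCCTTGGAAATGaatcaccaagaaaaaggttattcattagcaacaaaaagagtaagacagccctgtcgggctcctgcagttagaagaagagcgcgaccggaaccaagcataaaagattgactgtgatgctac

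Copies of mitochondrial tRNAs lay in 19 of the 540 bins, rRNA in 2, coding sequence in 103 and cosRNAs in 139. The copy also repeats itself, with at least 50% of the words found again within the window in 66 bins. A search of the 1028 smRNAs that the study lists as lost in *sgs3* found 6 without a mismatch in the window, and all of them lay in tRNA copies. None of the 608 listed for *rdr6* matched. The list was made from these libraries and is not independent evidence of a loss in *sgs3*. The tRNA copies that hold the 6 sequences are printed as RNA sense strands in DNA letters, with the listed smRNAs in capitals (overlapping ones run together in trnE).

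trnE(TTC), bin 6607, chr2:3303244-3303315, minus strand: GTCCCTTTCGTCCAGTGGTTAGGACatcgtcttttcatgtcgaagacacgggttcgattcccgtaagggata
trnM(CAT), bin 6658, chr2:3328670-3328742, minus strand: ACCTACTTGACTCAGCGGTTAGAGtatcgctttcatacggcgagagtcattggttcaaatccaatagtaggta
trnP(TGG), bin 6991, chr2:3495012-3495086, plus strand: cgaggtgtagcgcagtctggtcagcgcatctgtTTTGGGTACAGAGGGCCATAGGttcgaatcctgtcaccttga
trnC(GCA), bin 6991, chr2:3495442-3495512, plus strand: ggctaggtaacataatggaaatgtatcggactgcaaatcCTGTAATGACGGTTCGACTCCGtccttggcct
trnN(GTT), bin 6993, chr2:3496440-3496511, plus strand: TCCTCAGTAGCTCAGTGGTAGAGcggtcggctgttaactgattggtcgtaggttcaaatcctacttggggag

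Each of the 6 sequences occurred once in the window and once in the mitochondrial genome, and nowhere else in the nuclear chromosomes. The trnN sequence also occurred at 2 places in the chloroplast genome. The tRNA copies of 3 other abundant bins are shown for their cosRNAs, which are in capitals and lie at or next to the 5′ end of the tRNA.

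trnQ(TTG), bin 6553, chr2:3276440-3276511, plus strand: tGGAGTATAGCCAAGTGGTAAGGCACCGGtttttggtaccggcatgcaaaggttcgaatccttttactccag
trnG(GCC), bin 6889, chr2:3444363-3444434, minus strand: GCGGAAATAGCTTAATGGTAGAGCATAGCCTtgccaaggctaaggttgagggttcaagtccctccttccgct
trnD(GTC), bin 6512, chr2:3255832-3255905, minus strand: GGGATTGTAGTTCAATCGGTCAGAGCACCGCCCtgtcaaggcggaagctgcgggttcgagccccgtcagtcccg

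smRNAs of the insertion were unevenly spread. The median log2 CPM of the 540 bins was 0.61, the lowest -3.23 and the highest 9.78, and 368 bins reached at least 0. In Col-0 the level of a bin was approximated from the mean log2 CPM and the fold changes of the 7 mutants with shared controls, on a CPM scale with no error attached. The 10 bins with the highest log2 CPM held 54.0% of the approximate Col-0 level of the insertion, against a median of 0.967 CPM per bin. 8 of these 10 held a tRNA copy and all 10 a cosRNA copy. The 19 bins with a tRNA copy, at a median log2 CPM of 6.85, held 53.6% of the level. Reads were allowed several alignments and the copy repeats itself, so a read can enter these sums more than once. For example, bins 6608 and 6989, both among the 10, hold copies of the same serine tRNA. Bins with a cosRNA but no tRNA had a median log2 CPM of 1.54 (126 bins), those with only coding or rRNA sequence 2.25 (65 bins), and the remaining 330 bins 0.07.

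The most abundant member was Chr2_6991, which holds the tRNAs for proline and cysteine, at an approximate 303 CPM in Col-0. It stood at 5340 CPM in *rdr2*, 346 in *rdr4*, 228 in *rdr6*, 217 in both *rdr1* and *rdr5*, 185 in the libraries labelled *rdm12* and 170 in *sgs3*. *rdr2* was thus far above all others on the deposited scale, and *sgs3* lowest. Chr2_6553, with the glutamine tRNA, followed at 253 CPM in Col-0, 118 in *rdr1*, 142 in *sgs3* and 5130 in *rdr2*. Chr2_6876, with part of the small-subunit rRNA gene *rrn18*, had 158 CPM in Col-0 and between 110 and 162 in the mutants other than *rdr2*. Chr2_6889, with the glycine tRNA beside coding sequence of the cytochrome c maturation gene *ccmFC*, had 238 CPM in Col-0, 106 in *rdr1*, 111 in *rdr5* and 67.8 in *sgs3*. The other 6 of the top 10, in falling order of log2 CPM, were 6512 (8.66, aspartate tRNA), 6607 (8.40, glutamate tRNA), 6993 (8.00, asparagine tRNA), 6608 (7.64, serine tRNA), 6989 (7.56, a second copy of that serine tRNA) and 6935 (7.34, part of *nad6*, a subunit gene of respiratory complex I).

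**Figure D1:**
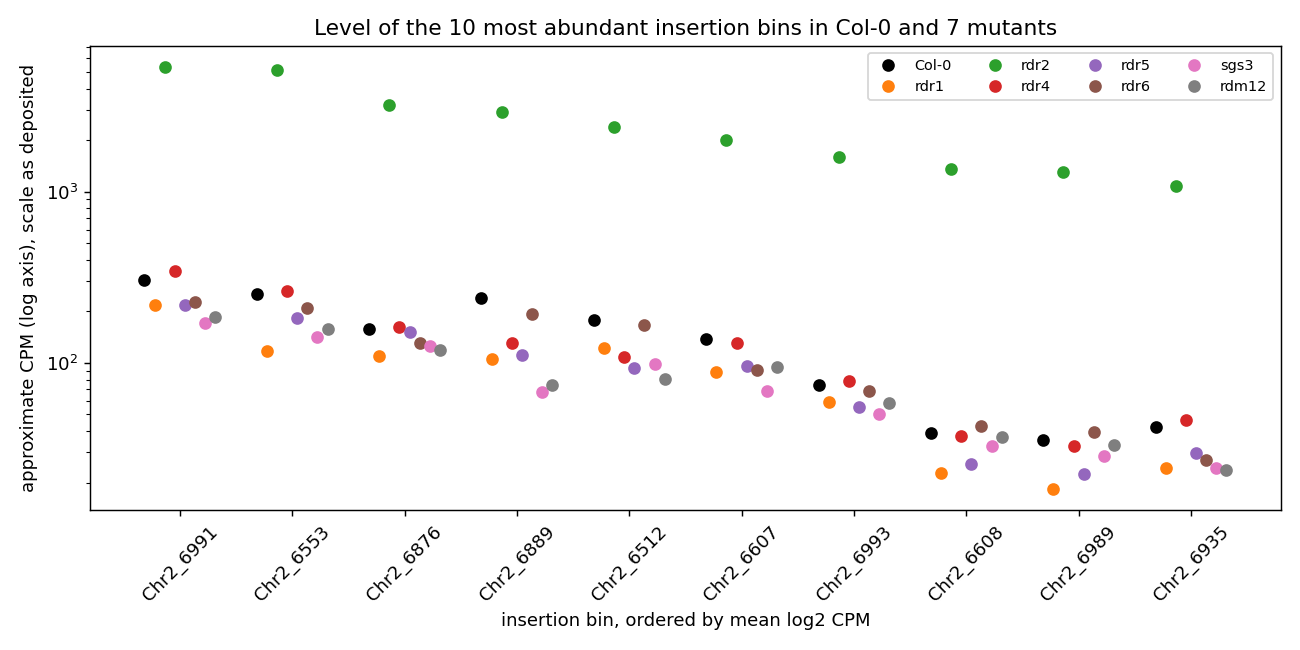
Approximate smRNA level (CPM, logarithmic axis) of the 10 most abundant insertion bins, 1 point per genotype, with Col-0 in black, on the scale of the deposited tables. *rdr2* is highest at each of the 10 bins, from 1080 to 5340 CPM, a position that depends on the scale of the *rdr2* table; no error bars are drawn because the tables have no values per library.

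The *rdr3* tables, which rest on other libraries, held far less of the insertion. Its median log2 CPM there was -2.73, with 56 bins at 0 or above. The insertion took 0.0321% of the summed approximate CPM in the Col-0 libraries of *rdr3* against 0.335% in the shared Col-0 libraries. ChrM took 0.0719% against 0.869%, so the lower share was not particular to the insertion. Over all bins the median log2 CPM was also lower, at -5.04 in the *rdr3* table against -3.57 for the other mutants. Chr2_6512 was the most abundant of the named bins in that table, at a log2 CPM of 6.58.

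In *rdr2*, smRNAs of the insertion rose at 463 of 540 bins and fell at none in the deposited table (FDR under 0.05 and a log2 fold change of at least 0.58 in size), where 17.1% of all bins rose and 7.80% fell. The median log2 fold change of the members was 2.79, with 90% of bins between 0.33 and 4.36. This direction depends on the scale. The summed approximate CPM over all bins was 8.15 times as high in *rdr2* as in Col-0, a shift of 3.03 on the log2 scale. Bins of microRNA genes with a log2 CPM of at least 0 had a median of 4.36. With the sums made equal, 118 bins rose, 176 fell and the median was -0.24, and centred on microRNA bins 1 rose, 389 fell and the median was -1.58. As a share of the summed CPM, the insertion held 0.335% in Col-0 and 0.631% in *rdr2*, and ChrM 0.869% and 1.73%. Such a share is weighted to the most abundant bins, while the medians above count each bin alike. Therefore the position of the insertion relative to other bins of the same table, which no change of scale alters, is given next.

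In *rdr2* the insertion and ChrM lay close together and the nuclear neighbours below them, which holds on each scale, since a change of scale shifts all bins alike. On the deposited scale, the insertion had the median of 2.79 given above. The 734 ChrM bins had a median of 2.82, 624 of them rose and none fell. The 1080 nuclear bins on both sides of the window, 540 on each, had a median of -0.65, with 202 decreased and 47 increased. Across all bins the median was 1.36, and across the 40868 bins with a log2 CPM of at least 0 it was -0.73. Reads could be aligned to up to 100 places by the study's methods, so a read that fits both ChrM and the insertion can be counted in both, and smRNAs of the organelle and of the nuclear copy cannot be told apart in the bins.

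**Figure D2:**
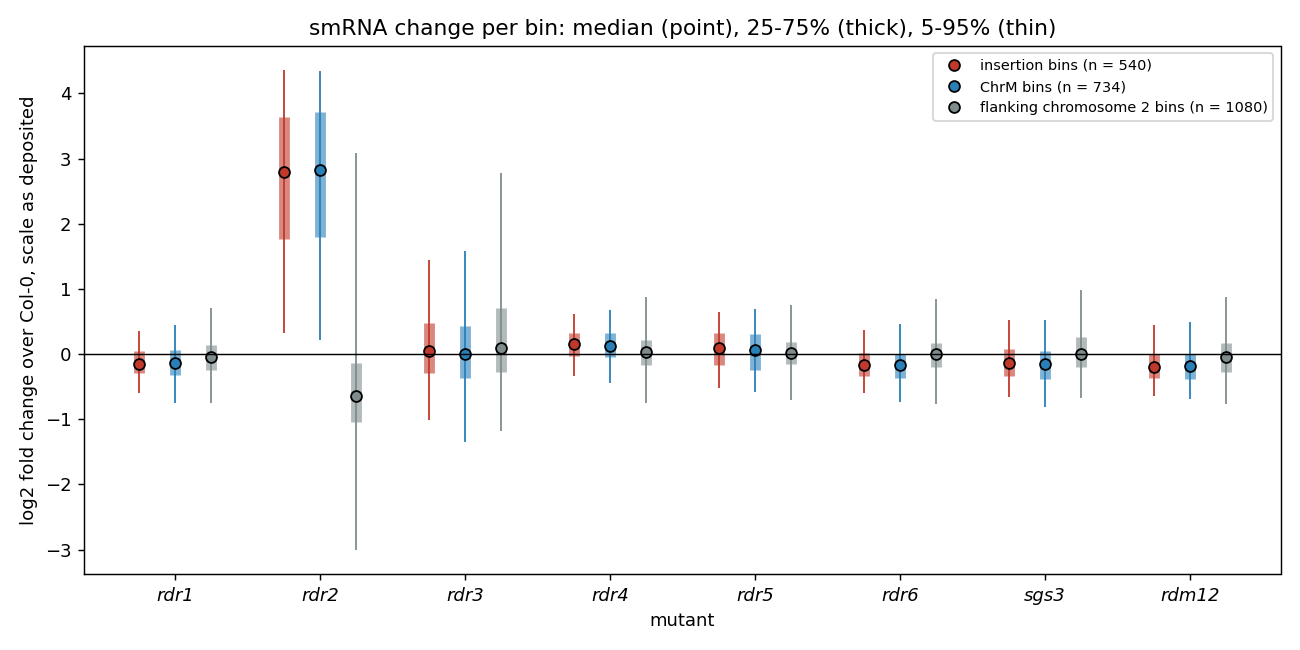
Log2 fold change of smRNAs over Col-0 for each mutant in the insertion bins (540), the ChrM bins (734) and the flanking bins of chromosome 2 (1080), as the median (point), the 25th to 75th percentile (thick line) and the 5th to 95th (thin line) of bins. In *rdr2* the medians are 2.79, 2.82 and -0.65 on the deposited scale, where the sign of the first pair flips when the summed CPM is made equal; in the other mutants the 3 medians lie between -0.20 and 0.15.

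The *rdr2* values were uneven around the ends of the copy. To the left, the bin 6478 had a log2 fold change of -1.68 (FDR = 0.286), bin 6479, in which the copy begins, 2.75 (FDR = 0.0552), and bin 6480 4.15 (FDR = 8.18e-64). The first 3 bins of the window had 3.23, 2.52 and 1.45, and all of them rose. To the right, bins 7018, 7019 and 7020 had 1.51, 1.09 and 0.93, of which the last did not pass the test (FDR = 0.369), and bin 7021 outside had 0.09 (FDR = 1). Some bins outside the copy were as high as those inside. Bin 6474, on the left, rose by 2.49 (FDR = 0.0167), and on the right bins 7022 and 7024 had 1.06 and 1.19 and did not pass the test (FDR = 0.317 and 0.721). Bins 6479 and 6480 are counted among the flanking bins above, although they hold mitochondrial sequence.

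Within the window the *rdr2* values were lower on the left than on the right. In 9 segments of 60 bins, the median log2 fold change was 1.72, 2.38, 0.94 and 1.96 from the left end to 120 kb, and between 3.22 and 3.54 in the 5 segments after that. 28 of 60 bins rose in the third segment, against 53 to 60 in each of the last 5. 76 bins had a value at or under 1, and 56 of them were among the first 180 bins. Chosen after the values had been seen, 5 runs of at least 4 neighbouring bins at or under 1 held 39 of them, the longest from 6610 to 6623 (14 bins, between -0.54 and 0.59, median log2 CPM 1.98) and from 6640 to 6652 (13 bins, between 0.11 and 0.96). The 77 bins not called in *rdr2*, a set that only partly overlaps these, had a median log2 CPM of 0.71 and log2 fold changes from -0.94 to 2.09, and the 463 increased ones had a median log2 CPM of 0.59. This log2 CPM is a mean that includes *rdr2* itself, so it is raised in the increased bins and does not compare Col-0 levels.

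**Figure D3:**
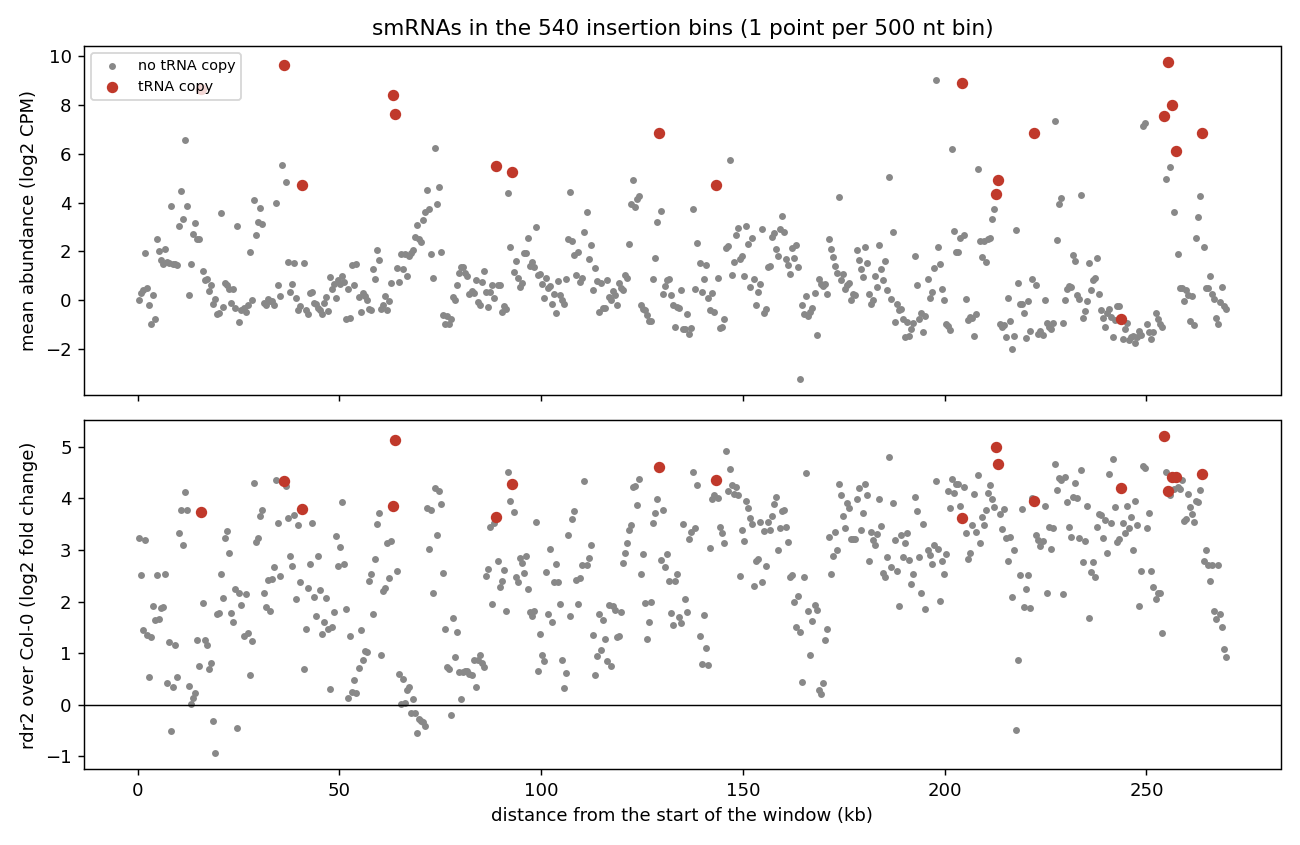
Mean smRNA abundance (log2 CPM, top) and log2 fold change of *rdr2* over Col-0 on the deposited scale (bottom) of the 540 insertion bins against the distance from the start of the window (kb), with bins that hold a tRNA copy in red. The tRNA bins reach a log2 CPM of 9.78 and lie between 3.62 and 5.20 in *rdr2*, while low *rdr2* values gather in the first 90 kb, where 56 of the 76 bins at or under 1 lie; on a scale with equal summed CPM the median of all bins is -0.24.

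The stretch of 1105 nt without a mitochondrial counterpart begins in Chr2_6518, covers Chr2_6519 and ends in Chr2_6520, and the first and second of these bins were in 1 of the runs. Chr2_6518, with 1.05% of its words mitochondrial, and Chr2_6519, with none, had -0.31 ± 0.77 (approximate SE, FDR = 0.973) and -0.94 ± 0.56 (FDR = 0.233) in *rdr2*, neither of which passed the test. Their approximate levels were 0.875 and 1.22 CPM in Col-0 and 0.705 and 0.633 in *rdr2*. Chr2_6520, which is 72.1% mitochondrial by words, rose by 1.76 ± 0.45 (FDR = 0.000689). The other runs were mitochondrial in sequence (medians of 97.5% or 100% of words).

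The tRNA copies were at the upper end in *rdr2*. All 19 tRNA bins rose, with a median log2 fold change of 4.34, near the 4.36 of the microRNA bins. The 3 highest called bins were Chr2_6989 (5.20 ± 0.37, FDR = 4.73e-42) and Chr2_6608 (5.12 ± 0.29, FDR = 5.43e-66), both with the copy of the serine tRNA trnS(GCT), and Chr2_6906 (4.99 ± 0.35, FDR = 3.91e-45), which holds part of the serine tRNA trnS(GGA). The 3 lowest called bins were Chr2_6563 (0.69 ± 0.27, FDR = 0.0443), Chr2_6652 (0.73 ± 0.29, FDR = 0.0426) and Chr2_6511 (0.75 ± 0.22, FDR = 0.0047), none of which holds a tRNA. All 65 bins with only coding or rRNA sequence rose (median 3.71), as did 104 of 126 with a cosRNA but no tRNA (2.82) and 275 of the other 330 (2.55). As above, these rises are on the deposited scale. Some bins repeat each other's sequence, so bins are not independent measurements. In 27 pairs that shared at least 50% of their words the median absolute difference was 0.23 in *rdr2* and between 0.09 and 0.37 in the other mutants. Single pairs differed by more in *rdr2*, as 6483 and 6579 did (1.45 and 3.27), and unrelated bins were not compared in this way.

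In *sgs3*, 9 insertion bins fell and 2 rose, 1.67% and 0.370% of the members, where 0.361% of all bins fell and 0.320% rose. Of the ChrM bins, 1.77% fell (13 of 734), and of the flanking bins none fell and 3 rose. 6 of the 9 decreased bins hold a tRNA copy and 7 a cosRNA copy, and their log2 CPM lay between 2.78 and 9.78. The 3 lowest were Chr2_6889 with the glycine tRNA (-1.81 ± 0.47, FDR = 0.0197), Chr2_6658 with the methionine tRNA (-1.37 ± 0.22, FDR = 6.45e-07) and Chr2_6607 with the glutamate tRNA (-1.01 ± 0.16, FDR = 2.4e-07). Chr2_6991, with the proline and cysteine tRNAs, fell by 0.84 ± 0.16 (FDR = 0.000141). With the table centred on ChrM bins, or with equal summed CPM, 4 of the insertion bins were called decreased, and centred on microRNA bins 88. The listed sequences printed above lie in 6607, 6658 and 6991, and also in 6993, whose asparagine tRNA bin had -0.58 and did not pass the test (FDR = 0.0833). The other decreased bins were 6884 (-0.87, *ccmFC*), 6855 (-0.81, the ATP synthase gene *atp8*), 6925 (-0.76, initiator methionine tRNA), 6907 (-0.71, serine tRNA) and 6992 (-0.70).

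Over all 19 tRNA bins the median in *sgs3* was -0.46, and 17 of 19 values were below 0. Bins with only coding or rRNA sequence had -0.27 (58 of 65 below 0), and those with a cosRNA but no tRNA -0.18 (92 of 126). The 330 bins without a tRNA, cosRNA, coding or rRNA copy had a median of -0.09, with 197 below 0. For the tRNA bins and these 330 bins, the medians were -0.31 and -0.15 in *rdr1*, -0.48 and 0.16 in *rdr5*, and -0.12 and -0.14 in *rdr6*. They were 0.17 and 0.12 in *rdr4*, 0.21 and 0.04 in *rdr3*, and -0.35 and -0.17 in the libraries labelled *rdm12*. Of the 19 tRNA values, 17 were below 0 in *rdr1*, 18 in *rdr5*, and 15 each in *rdr6* and the libraries labelled *rdm12*. In *rdr4* and *rdr3*, 7 and 8 were. Low tRNA values were therefore seen in several mutants, which share their Col-0 libraries, and most of these values did not pass the test. In bulk buds, fewer cells of a type and less RNA per cell cannot be told apart.

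The increased bins in *sgs3* were Chr2_6772 (1.39 ± 0.27, FDR = 0.00012) and Chr2_6783 (1.18 ± 0.21, FDR = 9.66e-06). Chr2_6783, which holds part of *nad7*, another complex I gene, was also the single bin that rose in *rdr6* (1.74 ± 0.20, FDR = 6e-15). In *rdr6* none fell, where 0.163% of all bins fell and 0.124% rose, and 45 insertion bins had an unadjusted p under 0.05 in either direction. The level of this bin was an approximate 1.58 CPM in Col-0, 5.29 in *rdr6* and 3.58 in *sgs3*, and between 1.63 and 1.91 in *rdr1*, *rdr4*, *rdr5* and the libraries labelled *rdm12*. *rdr6* and *sgs3* were thus the high genotypes of this bin apart from *rdr2* (22.2), with the *rdr3* pair of libraries at 0.318 and 0.292. Both comparisons use the same Col-0 libraries.

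In *rdr1*, 2 insertion bins fell and 2 rose, 0.370% each, where 0.168% of all bins fell and 0.0919% rose. The decreased bins were Chr2_6658 (-0.93 ± 0.22, FDR = 0.0102) and Chr2_6607 (-0.64 ± 0.16, FDR = 0.0224), and the increased ones Chr2_6772 (1.11 ± 0.27, FDR = 0.0197) and Chr2_6664 (0.89 ± 0.21, FDR = 0.0123), of which 34.2% of words are shared with the chloroplast genome. In the libraries labelled *rdm12*, 4 bins fell and 1 rose, 0.741% and 0.185%, where 0.336% of all bins fell and 0.138% rose. The lowest were Chr2_6658 (-1.01 ± 0.22, FDR = 0.00203), Chr2_6884 (-0.88 ± 0.23, FDR = 0.0375) and Chr2_6935 (-0.83 ± 0.23, FDR = 0.0492), followed by Chr2_6991 (-0.71 ± 0.16, FDR = 0.00395), and Chr2_6772 rose by 1.07 ± 0.28 (FDR = 0.0258). These counts depend on the scale. With ChrM bins as the centre, no bin was called decreased in *rdr1* and 1 in the libraries labelled *rdm12*, with equal summed CPM none was in either, and centred on microRNA bins 136 and 169 were.

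Chr2_6658 and Chr2_6772 were thus called in 3 mutants with shared controls beside *rdr2*. The methionine tRNA bin Chr2_6658 had approximate levels of 21.5 CPM in Col-0, 16.4 in *rdr4*, 16.1 in *rdr6*, 12.1 in *rdr5*, 11.3 in *rdr1*, 10.7 in the libraries labelled *rdm12* and 8.29 in *sgs3*. Every one of these mutants lay below Col-0, and *rdr2* was at 267 CPM on its own scale. Chr2_6772 had 0.836 CPM in Col-0 and between 1.11 and 2.19 in the same 6 mutants, so Col-0 was the lowest genotype. A single control value enters each of these comparisons, and the separate *rdr3* libraries gave 1.30 (FDR = 1) for Chr2_6658 and 2.73 (FDR = 1) for Chr2_6772.

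**Figure D4:**
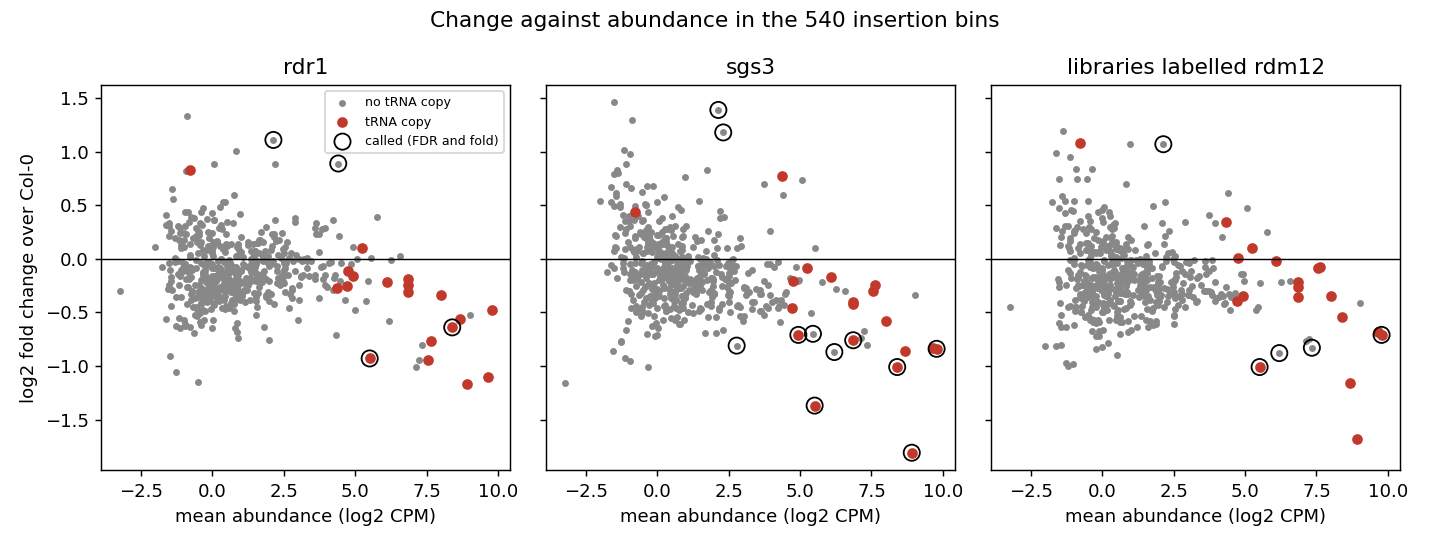
Log2 fold change over Col-0 (y axis) against mean log2 CPM (x axis) of the 540 insertion bins in *rdr1*, *sgs3* and the libraries labelled *rdm12*, with tRNA bins in red and called bins circled. Called decreases in *sgs3* lie at a log2 CPM of 2.78 to 9.78, and 6 of the 9 are tRNA bins.

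In *rdr5* a single bin rose and none fell, where 0.0752% of all bins rose and 0.123% fell, and 83 insertion bins had an unadjusted p under 0.05 in either direction. It was Chr2_6618 (0.75 ± 0.16, FDR = 0.00275), inside the long run of low *rdr2* values, at 5.78 CPM in Col-0 and 9.69 in *rdr5*. In *rdr4* and *rdr3* no insertion bin was called in the edgeR tables, where 0.143% of all bins fell and 0.0514% rose in *rdr4*, and 0.00167% fell and 0.0430% rose in *rdr3*. At an unadjusted p under 0.05 there were 36 such bins in *rdr4* and 28 in *rdr3*. The medians of the insertion and of ChrM lay close together in each of these mutants, at -0.15 and -0.13 in *rdr1*, 0.05 and 0.00 in *rdr3*, 0.15 and 0.12 in *rdr4*, 0.10 and 0.06 in *rdr5*, -0.16 and -0.17 in *rdr6*, -0.14 and -0.15 in *sgs3*, and -0.20 and -0.18 in the libraries labelled *rdm12*. No median in this list exceeded 0.20 in size. With equal summed CPM, which moves the *rdr3* table by 1.26 on the log2 scale, 203 insertion bins were called increased in *rdr3* and their median was 1.32.

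**Figure D5:**
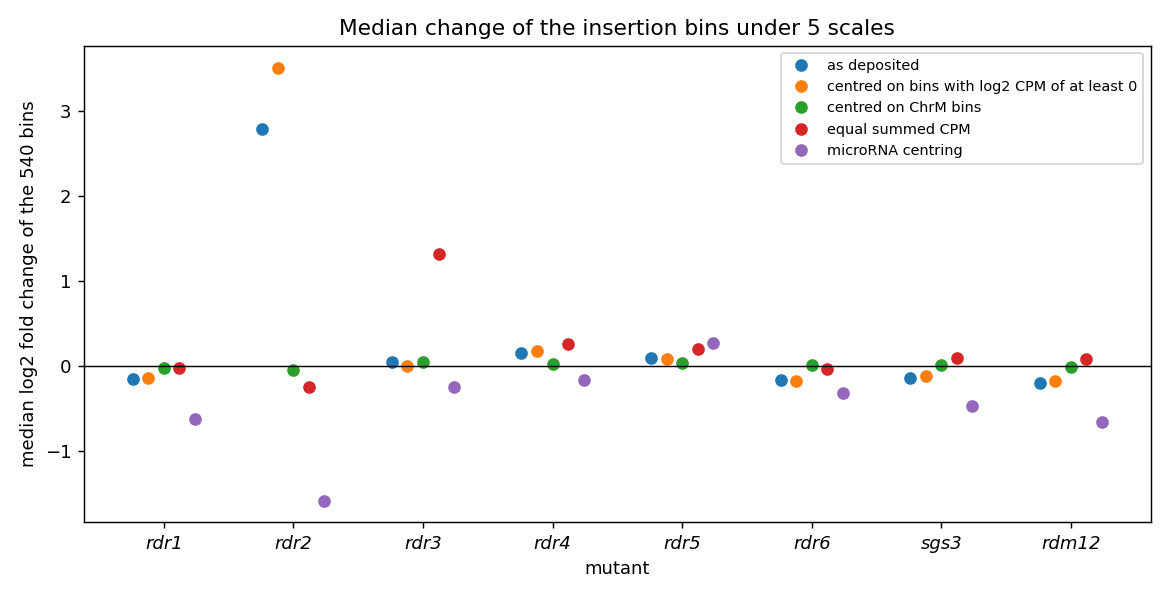
Median log2 fold change over Col-0 of the 540 insertion bins for each mutant under 5 scales, the deposited one and 4 others. *rdr2* runs from -1.58 (centred on microRNA bins) to 3.51 (centred on bins with a log2 CPM of at least 0), and *rdr3* reaches 1.32 when the summed CPM is made equal.

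The genes annotated inside the window gave a second view of *rdr2*, because reads were counted there by strand with HTSeq. How that count treated reads with several alignments is not given in the sources used here. Of 185 annotated genes that overlap the window, 128 were in the gene tables, and 49 had a log2 CPM of at least 0 in some table. On the sense strand, smRNAs of 35 genes rose and those of 7 fell in *rdr2*, where 13.3% of all features rose and 19.3% fell. On the antisense strand 34 rose and none fell, where 6.77% of all features rose and 3.55% fell. The most abundant was *AT2G07746*, the glutamine tRNA gene of bin 6553, with a log2 CPM of 8.53 and a log2 fold change of 2.11 (FDR = 0.000642). Direction in these tables also depends on what is taken as unchanged. On the sense strand microRNA genes had a median of 2.57 (112 genes) and all features whose log2 CPM was 0 or more a median of -2.87, and on the antisense strand these medians were -0.32 (6 genes) and -0.84. The sizes of the gene and bin values were therefore not compared, and bin values are given beside the genes only as a description.

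Some of the genes that lost sense smRNAs in *rdr2* lay over bins with low values. The largest loss among genes with a log2 CPM of at least 0 was that of *AT2G07749*, a protein-coding gene of bins 6495 to 6499 (-2.85, FDR = 2.18e-23, log2 CPM 3.83), whose 5 bins had a median of 0.42. The pseudogene *AT2G07686*, in bins 6619 to 6623, fell by 2.19 (FDR = 6.5e-14), and its 5 bins, between -0.54 and -0.27, belong to the longest run of low values. The pseudogene *AT2G07682* (-1.42, FDR = 0.000689) and *ABCI4* (-1.03, FDR = 0.014), named as an ABC transporter subunit and with a bin median of 2.28, followed at a log2 CPM of at least 0, and *AT2G07692*, *AT2G07694* and *AT2G07784* were below it. On the antisense strand *AT2G07692* and *AT2G07694* rose, by 3.44 (FDR = 4.69e-27) and 3.42 (FDR = 6.39e-22), and their bin medians were 1.76 and 1.96. The rest of the 7 genes were not called on that strand. The 39 bins of the 7 genes had a median *rdr2* log2 fold change of 1.02, and the 151 bins of the 35 increased genes 3.62. Both come from the same libraries, so this is a description and not a test. Examples of increased sense smRNAs were *AT2G07708* (2.51), *AT2G07725* (2.56) and *AT2G07698* (2.20). Apart from *rdr2*, *AT2G07717* in *rdr5* was the single gene of the window called in the smRNA tables, with 0.72 on the antisense strand (FDR = 0.0413), where 0.0648% of all features rose. In the smRNA tables without a called gene, 0 to 0.284% of all features were called per direction, and 1 to 6 of the 128 genes had an unadjusted p under 0.05.

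In total RNA few of these genes were called. In *rdr4*, *AT2G07689* (1.01, FDR = 0.0115) and *AT2G07715* (0.61, FDR = 0.0445) rose, where 0.204% of all sense features rose. No gene of the window was called in total RNA of any other mutant by edgeR (0 to 0.0988% of all features were called per table and direction). Among genes with a log2 CPM of at least 0 the sense log2 fold changes ran from -1.80 in *rdr4* to 1.28 in *rdr5* and *sgs3*, so larger differences that did not pass the test with 2 libraries per group were among them. At an unadjusted p under 0.05, the sense table of *rdr4* held 14 of the 128 genes, those of the other mutants 2 to 8, and the antisense tables of all mutants 1 to 4. In *rdr2* the most abundant transcripts, *AT2G07709* and *AT2G07717*, had log2 fold changes of 0.22 and 0.13 in total RNA (FDR = 1), beside 1.25 and 1.55 for their sense smRNAs.

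The labels were checked on the mutated genes in total RNA. Transcripts of *RDR1* (-2.03), *RDR2* (-4.48), *RDR6* (-2.08) and *SGS3* (-1.41) fell in their own mutants. *RDR3* (0.14), *RDR4* (-2.76) and *RDR5* (0.87) did not pass the test. Their log2 CPM was only 0.92, 0.03 and -0.06, so this check says little about these 3 labels. *RDM12* had 1.04 (FDR = 1.56e-06) in the libraries labelled *rdm12*, a rise in a mutant labelled for this gene. The floral identity genes *AP3*, *PI*, *AG* and *SEP3* were present in total RNA at a log2 CPM of 2.14 to 4.91.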

How the data were processed

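smRNAs and total RNA were sequenced on an Illumina HiSeq2000 from unopened flower buds, with 2 libraries per group. Per the study's methods, the authors trimmed adapters with cutadapt, aligned reads to TAIR10 with TopHat, allowing 2 mismatches and up to 100 alignments per read, counted reads in 500 nt bins with bedtools and in genes with HTSeq, and tested counts with edgeR. Versions are not given in the sources used here. The deposited tables hold log2 fold changes of mutant over Col-0 and mean log2 CPM, as the authors made them with edgeR. Their p-values and FDR values, adjusted over each whole table, were also made by the authors. These columns of the authors' own comparisons are all that the 40 tables hold, so they are the measurements used here, with no values per library and no refit of counts.

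Calls required an FDR under 0.05 and a log2 fold change of at least 0.58 in size. Approximate CPM per genotype was derived from the mean log2 CPM and the fold changes, and an approximate SE by dividing the log2 fold change by the normal deviate of its p-value. On other scales, p-values were computed from these SEs and adjusted over all bins. On 20000 simulated features with 200 planted changes, this step called 94% of them, and 3.59% of its calls were false. The simulated p-values came from the same normal model that the step assumes, and a far smaller share of features changed than in *rdr2*. The simulation thus checks the arithmetic and gives no error rate for the deposited tables. Sequence was taken from RefSeq (TAIR10.1) and compared by words of 24 nt. Bins were matched to positions by their number. Of 249 bins that hold a microRNA gene and have a log2 CPM of at least 0, 232 were more abundant than the bins 3 before and 3 after them. These bins were taken for their abundance, so this is weak evidence for the numbering. Named bins were the 10 most abundant, the 3 lowest and 3 highest called in each mutant and the first and last 3 of the window; named genes were those inside it with a log2 CPM of at least 0. Bins at which listed sequences, runs or recurring calls lie were named after their values were seen. The members and lists were chosen with earlier results of these data known. Alternatives were other FDR and fold limits, a minimum abundance, other scales and other edges. The p-values rest on the spread between libraries of the same group. Whether edgeR pooled this spread over genotypes is not given in the sources used here. The paper calls the 2 libraries of a group biological replicates, and the labels do not tie them to separate plants. Python 3.11.15, pandas 2.3.3, numpy 2.4.6, scipy 1.17.1, Biopython 1.88 and matplotlib 3.10.9 were used.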

Additional observations from a re-analysis of the deposited data

How the results depend on the processing

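The direction in *rdr2* was set by the scale. Its median over the insertion was -0.04 with 151 bins decreased and 142 increased when centred on ChrM bins, -0.24 with 176 and 118 with equal summed CPM, and -1.58 with 389 and 1 when centred on microRNA bins. Reads that fit both ChrM and the insertion can be counted in both. Centring on ChrM therefore partly centres the insertion on its own reads, in every mutant, and gives no separate support. The equal-sum and microRNA scales were chosen after seeing the data.

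With ChrM centring, decreased bins numbered 0 in *rdr1*, 1 in *rdr5*, 4 in *sgs3* and, where 2 were increased, 1 in the libraries labelled *rdm12*. With equal summed CPM, decreased bins numbered 0 in *rdr1*, 4 in *sgs3* and, where the median was 0.08 and 2 were increased, 0 in the libraries labelled *rdm12*. Increased bins then numbered 203 in *rdr3* (median 1.32), 1 in *rdr4* and 7 in *rdr5*. With microRNA centring, decreased bins numbered 136 in *rdr1* (median -0.62), 1 in *rdr3*, 3 in *rdr6*, 88 in *sgs3* (median -0.47) and 169 in the libraries labelled *rdm12* (median -0.66). Increased bins were 0 in *rdr1* and in the libraries labelled *rdm12* and 14 in *rdr5*, and the *rdr4* median was -0.16. Centred on bins with a log2 CPM of at least 0, 1 bin was decreased in *rdr3* and 2 in the libraries labelled *rdm12*.

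At an FDR limit of 0.01, decreased and increased bins were 0 and 0 in *rdr1*, 3 bins were decreased in *sgs3*, and 2 decreased and 0 increased in the libraries labelled *rdm12*. At 0.1, 1 bin was decreased in *rdr3*, *rdr5* and *rdr6* each, and 2 increased in *rdr5*. At a fold limit of 1 on the log2 scale, *rdr1* had 0 decreased and 1 increased, *rdr5* 0 increased, *sgs3* 3 decreased and the libraries labelled *rdm12* 1 decreased. With a minimum log2 CPM of 0, 1 bin was decreased in *rdr3*, *rdr5* and *rdr6* each, and 3 increased in *rdr5*. Leaving 20 bins out at each edge, or keeping only bins with every word mitochondrial (chosen after seeing the data), left all 24 counts and medians within their limits.

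Leaving out each replicate and DESeq2 size factors were not run, since the tables hold no single libraries. No paired analysis was possible because the tables carry no replicate numbers. Without depths, no counting interval can be given, and reads that fit both ChrM and the insertion limit what the bins can show.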
